A study of Mus musculus with 4 samples.

Results

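Carbonic anhydrases are zinc enzymes that interconvert carbon dioxide and water with bicarbonate and a proton. In the colon they supply the bicarbonate and protons that epithelial exchangers trade for chloride and sodium, and they help to keep pH steady inside and outside the cell. Some family members lie in the cytosol, others are held on the outer face of the plasma membrane, and a few related proteins have lost the catalytic activity. The 8 genes described here, Car1, Car2, Car3, Car4, Car8, Car9, Car12 and Car13, were taken as all probe sets whose single gene symbol on the array platform was one of these names. That gave 18 probe sets of 45101 on the array, for 8 of 18194 named genes. Each gene was represented by its probe set with the highest mean, and all 8 genes passed a floor, a log2 value of 6 on 1 or more arrays, which 11871 genes passed in all. Of the 18 probe sets, 12 reached that floor.

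RNA came from scraped colon mucosa of mice of the 129S6/SvEv background at 5 weeks of age, measured on Affymetrix arrays. The 4 genotypes were VhlF/F (floxed Vhl), VhlΔIE (Vhl deleted in the intestine), VhlF/F/Apcmin/+ (floxed Vhl with the Min mutation of Apc, an intestinal tumour model) and VhlΔIE/Apcmin/+ (both changes). Below, the first pair are the Vhl floxed and the Vhl deleted arrays, the second pair bear the words Apc mutant as well, and values are listed in the order just given. The series' design lists 4, 3, 3 and 5 mice, but each genotype has 1 array, and the labels state neither whether RNA was pooled nor which recombinase driver was used. Vhl directs hypoxia-inducible factors (HIF) to degradation, and Apc restrains beta-catenin. Without replicate arrays no difference here was tested and no spread between animals can be given. Scraped mucosa is a mixture of cells, so fewer cells of a type and less RNA per cell cannot be told apart.

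The arrays also differed in ways that touch the results below. Vhl differed by -1.36 and -1.61 between deleted and floxed arrays in wild-type and mutant Apc mice. Xist, which silences an X chromosome in female cells, was at 11.37 and 11.83 on the floxed and at 5.58 and 6.25 on the deleted arrays, so sex makeup and Vhl deletion cannot be told apart. Of 15 hepatocyte markers, 12 were at least 2-fold higher in the Vhl floxed array than in the Vhl deleted array. Most of these 12 reached the floor in the Vhl floxed array alone. All 18 markers of differentiated colonocytes reached the floor, as the tissue label has it. Markers of crypt and dividing epithelium had median Vhl differences of 0.38 and 0.66, those of goblet cells -0.09 and 0.01, and those of macrophages 0.82 and 0.33. In the erythroid list, 6 of 8 measured markers lay under the floor in every array.

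Car9 was the member whose level followed Vhl status most plainly, at 2.63-fold higher with Vhl deletion without the Apc mutation and 2.68-fold higher with it. Car4, Car1 and Car2 read lower on both Vhl deleted arrays than on both floxed arrays, as 33.4% of all genes did, and none of the 3 differed by 2-fold. Car8, Car12, Car3 and, by less, Car13 had Vhl differences of opposite sign in the Apc backgrounds, against 23.9% of all genes. Without the Apc mutation, 1 member (Car9) was at least 2-fold higher with Vhl deletion, against 2.27% of all genes, and 1 (Car8) was at least 2-fold lower, against 1.60%. With the Apc mutation 2 members (Car9 and Car12) were higher, against 2.82%, and 0 were lower, against 1.52%. Car9 alone was at least 2-fold higher in both comparisons, against 1.58% of genes, and 0 members were lower in both, against 0.733%. The median difference of the 8 members was -0.34 without and 0.30 with the Apc mutation, while that of all genes was -0.02 in both. Without the Apc mutation 7 of 8 members were lower, and 46.6% of all genes were higher.

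The Apc mutation went with lower Car3, Car8 and Car12 when Vhl was floxed. These 3 members were at least 2-fold lower there, against 0.901% of all genes, and 0 were at least 2-fold higher, against 0.118%. With deleted Vhl, 0 members were 2-fold apart in either direction, against 0.202% of genes higher and 0.118% lower. The members' medians were -0.20 and 0.07, and those of all genes 0.00 and 0.00. The comparison of Vhl deletion without the Apc mutation and that of the Apc mutation with floxed Vhl share the Vhl floxed array. The 2 comparisons of Vhl deletion share no array.

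**Figure D1:**
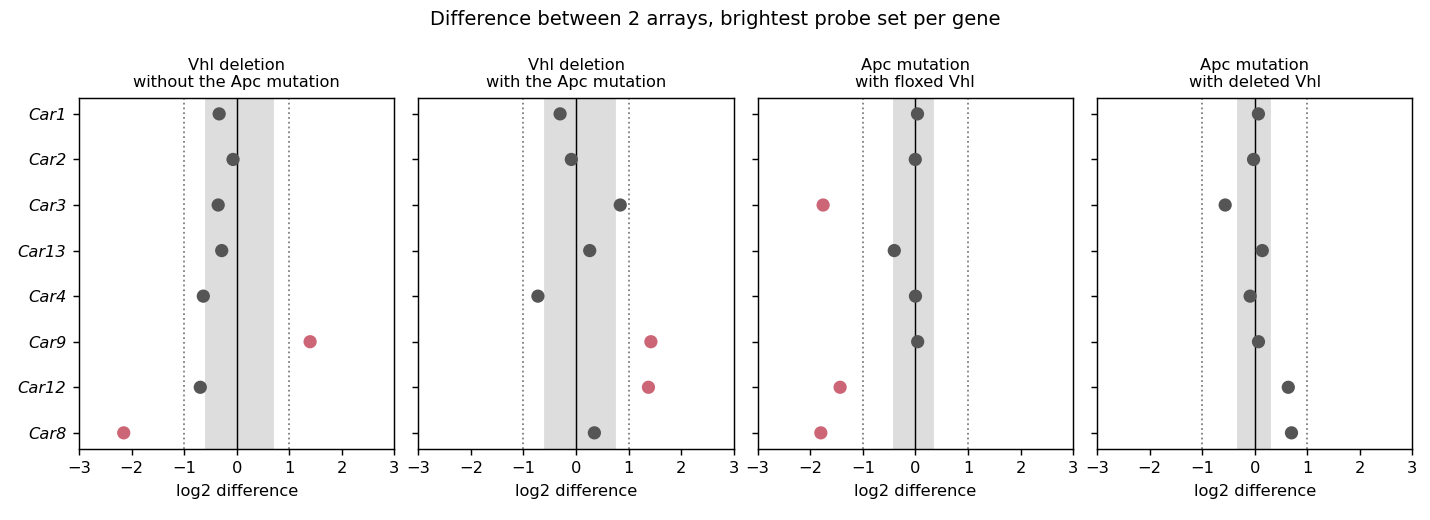
Log2 difference of the brightest probe set of each carbonic anhydrase gene in 4 comparisons of 2 arrays each; red points are at least 2-fold apart (dotted lines at -1 and 1), and the grey band spans the 5th to the 95th percentile of 11871 genes. Car9 lies to the right in both Vhl comparisons, and Car3, Car12 and Car8 lie to the left for the Apc mutation with floxed Vhl.

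Among the enzymes anchored in the plasma membrane with the active site outside the cell, Car9 is the textbook HIF target, a transmembrane enzyme that acidifies the surroundings of hypoxic cells. Its single probe set read 9.46, 10.86, 9.51 and 10.93. Both Vhl deleted arrays were thus above both floxed arrays, without overlap, as for 27.7% of all genes. The Vhl difference was 1.40 without and 1.42 with the Apc mutation. Arrays of the same Vhl status lay close, with Apc differences of 0.04 for floxed and 0.07 for deleted Vhl. Counted down from the highest Vhl difference, Car9 stood at place 130 of the 11871 genes without and 167 with the Apc mutation, and by size in either direction at 209 and 236.

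HIF targets as a list set the scale for Car9. Of 20 listed targets that passed the floor, 12 were raised 2-fold or more and 1 lowered with Vhl deletion in wild-type Apc mice, and 11 raised and 1 lowered in Apc mutant mice. Their median differences were 1.498 and 1.791, and 11 of the 20 targets had a larger difference than Car9 in each background. Among the 20, Pfkfb3, at 5.02, 7.49, 5.28 and 7.35, reached the floor in the Vhl deleted arrays alone. Its place in these counts thus depended on those arrays. Vegfa, the angiogenic growth factor, had differences of 1.90 and 1.91, and Slc2a1, the glucose transporter GLUT1, 0.61 and 0.58. The genes with the profile nearest to Car9 over the 4 arrays were Ncoa4, the ferritinophagy receptor, Cav1, the caveolin, and Ppif, the mitochondrial cyclophilin. Their root mean square distances from the centred profile of Car9 were 0.026, 0.036 and 0.041 on the log2 scale. Such closeness over 4 arrays is a description only.

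Promoter sequence is shown for Car9 and Car12 because both encode transmembrane enzymes and only the first was 2-fold higher in both Vhl deleted arrays. The 250 bases before the start site are printed 5′ to 3′ in the direction of the gene, from RefSeq on GRCm38.p6, at chr4:43506776-43507025 (plus strand) and chr9:66713436-66713685 (plus strand). Capitals mark a match to the core of the HIF response element, searched as ACGTG or GCGTG on both strands.
Car9: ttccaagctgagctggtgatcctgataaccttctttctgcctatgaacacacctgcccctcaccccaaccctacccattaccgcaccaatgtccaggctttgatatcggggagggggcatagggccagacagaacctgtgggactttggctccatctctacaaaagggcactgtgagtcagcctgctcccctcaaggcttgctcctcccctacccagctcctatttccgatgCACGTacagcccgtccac
Car12: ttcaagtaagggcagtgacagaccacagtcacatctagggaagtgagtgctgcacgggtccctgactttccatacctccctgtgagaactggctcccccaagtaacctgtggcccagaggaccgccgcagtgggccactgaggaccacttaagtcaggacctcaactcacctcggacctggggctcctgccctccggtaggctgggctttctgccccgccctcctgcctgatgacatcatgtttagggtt
The window searched held 250 bases before and 50 after the start. In Car9 it held 1 match, ACGTG on the other strand, whose first base in the printed direction lies at position -18 from the start site. The match lies outside the palindrome CACGTG, the E-box that shares these letters. In the Car12 window there was no match, which says only that these letters are not in this window. The other member with a window was Car4, which held 1 match to ACGTG on the other strand. Its first base in the direction of the gene lies at position 3, with the start site counted as 1. Of 32851 windows of this length, 43.8% held ACGTG or GCGTG on either strand and 19.6% held ACGTG. A match is a description of the sequence, not a bound site.

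Car12, a second transmembrane enzyme, present on the basolateral side of colon epithelium, did not follow Vhl status. Its brightest probe set read 7.91, 7.22, 6.48 and 7.86. The Vhl floxed Apc mutant array was the lowest, and the 2 highest arrays, Vhl floxed and Vhl deleted Apc mutant, differed by 0.05. Vhl deletion thus went with a difference of -0.69 without and 1.38 with the Apc mutation, 2.60-fold in the latter. The Apc mutation went with -1.43 when Vhl was floxed and 0.64 when it was deleted. The other 2 probe sets of Car12 lay under the floor in every array, between 3.80 and 5.27, and differed by at most 0.45 in any comparison of Vhl or Apc. One of them carries the mark of possible cross-hybridisation.

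With the Vhl floxed array as the control of the Vhl deleted Apc mutant array, a choice made after the data were seen, the Car12 difference was -0.054 in place of 1.38. The Vhl call of Car12 therefore rests on the Vhl floxed Apc mutant array. Differentiated colonocyte markers averaged 11.50, 11.33, 11.02 and 11.62, lowest in that array too, with 3 of 18 at least 2-fold lower than in the Vhl floxed array. Their log2 summed level was 16.99, 16.71, 16.84 and 16.79. The 7 genes of position along the colon that passed the floor, of 9 measured, averaged 7.88, 7.45, 8.88 and 7.81, highest in that array. Hoxd11, at 5.41, 4.81, 7.43 and 5.52, reached the floor in the Vhl floxed Apc mutant array alone. Its place in the mean and in the next count thus depended on that array. With floxed Vhl, 5 of the 7 were higher with the Apc mutation, Hoxd10 by the most, at 6.52, 5.38, 9.13 and 6.77. Hoxa11 was instead lowest in that array, at 6.97, 6.96, 6.41 and 6.91, and Hoxa13 read 7.88 and 7.87 on the floxed arrays. The part of colonocyte differentiation or colon position in the Car12 levels was not tested. The profiles nearest to Car12 were those of Meg3, an imprinted noncoding RNA, at a distance of 0.074, Alpi, the intestinal alkaline phosphatase of the brush border, at 0.12, and H2-T3, a nonclassical MHC molecule of the gut epithelium, at 0.17.

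Car4 is tethered to the outer membrane by a lipid anchor and is a brush-border enzyme of surface colonocytes. Its brightest probe set read 13.59, 12.96, 13.59 and 12.87, and the other, which may cross-hybridise, read 13.38, 12.73, 13.43 and 12.47. Both Vhl deleted arrays were below both floxed arrays in each probe set, a pattern held by 33.4% of all genes. The Vhl differences were -0.63 and -0.72 in the brightest and -0.65 and -0.96 in the other. At 1.55-fold and 1.65-fold lower the brightest did not reach 2-fold, though it lay outside the 5th percentile of all genes, -0.59 in both comparisons. The Apc differences were 0.00 with floxed and -0.09 with deleted Vhl.

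The colonocyte list had median Vhl differences of -0.04 and 0.26 beside these values of Car4. Slc26a3, the apical exchanger that imports chloride for bicarbonate, had Vhl differences of -0.69 and -0.76. Capillary endothelium also carries Car4, and all 13 endothelial markers were higher in both Vhl deleted arrays, with medians of 1.14 and 0.87. Among them Cdh5, Tek, Tie1 and Erg reached the floor only in Vhl deleted arrays. Their place in this count and in the medians thus depended on those arrays. The log2 summed level of the 13 markers was 10.74 and 10.78 in the floxed and 11.95 and 11.90 in the deleted arrays. Smooth muscle markers had median Vhl differences of -0.56 and -0.43. The part of endothelium or smooth muscle in the Car4 values was not tested.

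**Figure D2:**
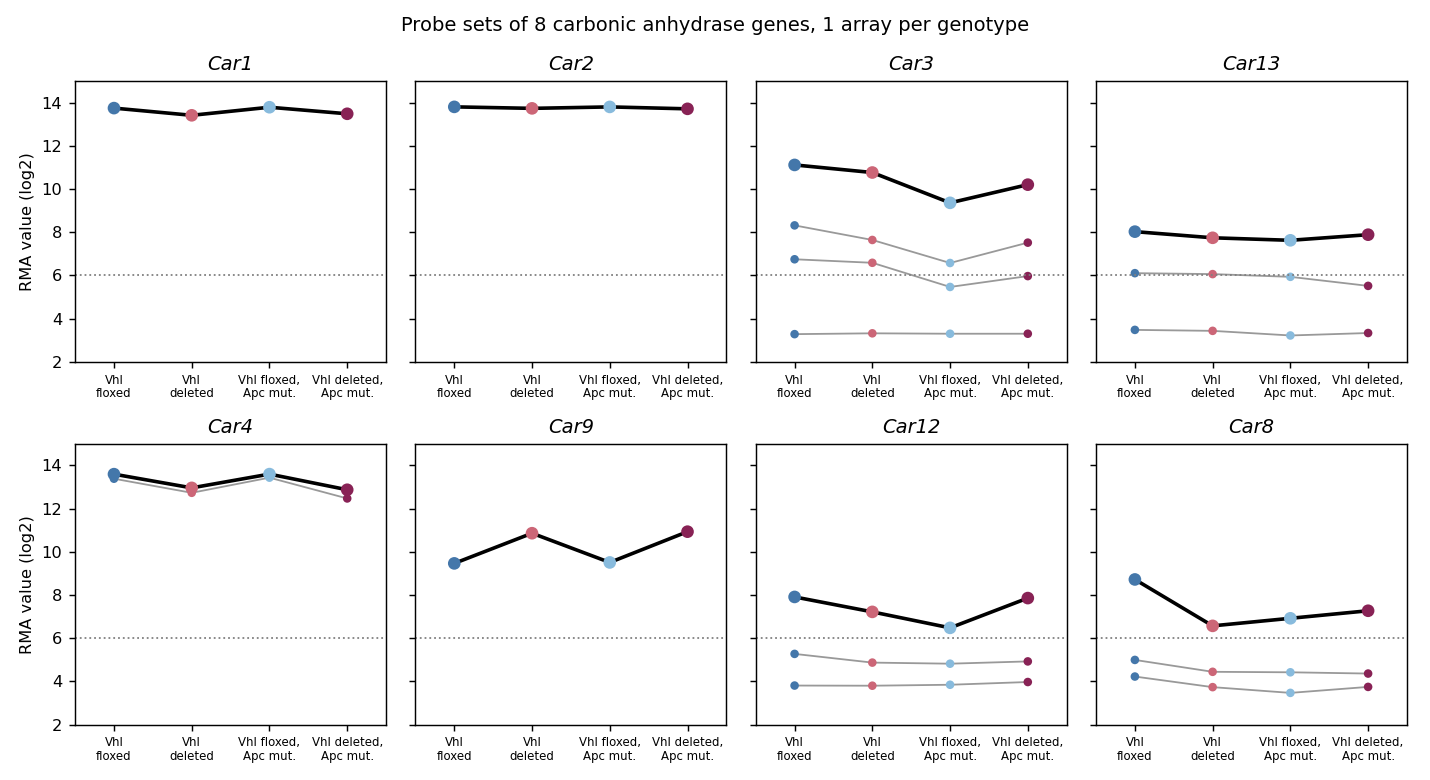
RMA log2 values of every probe set of the 8 genes on the 4 arrays, 1 per genotype; black lines mark the brightest probe set of a gene, grey lines the others, and the dotted line is the floor of 6. Car9 and Car4 alternate with Vhl status in opposite directions, Car3 and Car12 dip on the array of Vhl floxed Apc mutant mice, and Car8 is highest on the Vhl floxed array.

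Among cytosolic enzymes, Car1, Car2, Car3 and Car13 lie next to each other on chromosome 3, in the order Car13, Car1, Car3, Car2 in the RefSeq annotation. Their levels did not move as a block. Car2, the fast and widespread form, read 13.80, 13.74, 13.80 and 13.71. No comparison of Car2 exceeded 0.09 in size, the Vhl differences being -0.07 and -0.09.

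Car1, a cytosolic form abundant in colon epithelium and red cells, read 13.75, 13.41, 13.79 and 13.48. Both Vhl deleted arrays were lower, with differences of -0.33 and -0.30, and the Apc differences were 0.04 and 0.07. These Vhl differences lay inside the 5th to 95th percentile of all genes, -0.59 to 0.69 without and -0.59 to 0.75 with the Apc mutation. Car1 and Car2 read close to the highest value of any probe set on these arrays, 14.35 to 14.41. Car4 came near it on the floxed arrays, at 13.59, and lay further below on the deleted arrays, at 12.96 and 12.87. The effect of that limit on the differences of Car1, Car2 and Car4 was not tested. Of the erythroid list, 2 of 8 measured markers passed the floor, Tfrc at 11.61 to 11.93 and Epor at 6.16 to 6.32. Alas2 and Hba-a1, which define red cells, read at most 5.19 and 3.84. Of 13 listed markers, Hbb-b1, Hbb-bs and Hbb-bt were among those without a probe set of a single symbol. Globin RNA was thus measured in part only. The log2 summed level of the list was 11.99, 11.71, 12.01 and 11.80, lower in both Vhl deleted arrays as Car1 was. This sum was nearly all Tfrc, at 11.92, 11.61, 11.93 and 11.71, so its order is that of a single gene. The part of red cells in the Car1 values was not tested.

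Car13, another cytosolic enzyme of the gut, read 8.03, 7.74, 7.63 and 7.89 on its brightest probe set. Its Vhl differences were -0.28 without and 0.26 with the Apc mutation, and its Apc differences -0.40 and 0.14. A second probe set read 6.11, 6.06, 5.94 and 5.52, with Vhl differences of -0.04 and -0.42, so the 2 disagreed in sign with the Apc mutation. The third lay between 3.22 and 3.48, under the floor.

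Car3, a slow isoform abundant in fat, skeletal muscle and liver, had the widest range of the cytosolic members. The brightest probe set read 11.12, 10.77, 9.36 and 10.20. Its lowest array was the Vhl floxed Apc mutant, 3.37-fold below the Vhl floxed array, a difference of -1.75. With deleted Vhl the Apc difference was -0.56. The Vhl differences were -0.35 without and 0.84 with the Apc mutation.

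Another 2 probe sets of Car3 that passed the floor shared the order of the arrays. They read 8.32, 7.64, 6.58 and 7.52, and 6.75, 6.59, 5.47 and 5.97. Their differences for the Apc mutation with floxed Vhl were -1.74 and -1.28. The fourth probe set lay at 3.28 to 3.32. With the other floxed array as control, the Vhl differences of Car3 were 1.40 without and -0.91 with the Apc mutation, so each turned sign.

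Most fat markers that passed the floor shared the dip of Car3. The nearest profile was that of Adipoq, the adipocyte hormone adiponectin, at a distance of 0.17, with 7.64, 7.55, 6.28 and 7.17. Mal, a raft protein of epithelia and myelin, followed at 0.18, and Thrsp, a lipogenic protein of fat and liver, at 0.19. Over the adipocyte list, 7 of 8 measured markers reached the floor and averaged 8.24, 8.03, 7.48 and 8.18. With floxed Vhl, 6 of the 7 were lower with the Apc mutation, with a median of -0.95. Pck1 was among these at only -0.15, and Plin4 was higher by 0.04. Neither was lowest on the Vhl floxed Apc mutant array, with Pck1 at 9.84, 8.29, 9.70 and 8.38 and Plin4 at 7.10, 6.57, 7.14 and 6.72. The log2 summed level of the list was 11.79, 11.55, 11.10 and 12.68, the last led by Lpl, a lipase, at 12.29. Lep, the hormone leptin, lay under the floor in every array. In the skeletal muscle list 7 of 10 markers lay under the floor, and the mean of the other 3 was 6.56, 6.72, 6.60 and 6.58. The part of fat, muscle or liver RNA in the Car3 values was not tested.

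Car8 is a carbonic anhydrase-related protein without catalytic activity, best known as a binding partner of the inositol trisphosphate receptor in Purkinje cells. It read 8.72, 6.57, 6.92 and 7.27 on its brightest probe set. The Vhl floxed array stood above the other 3, which spanned 0.70. Car8 was 4.43-fold lower with Vhl deletion without the Apc mutation, a difference of -2.15, and differed by 0.35 with it. The Apc mutation went with -1.80 when Vhl was floxed and 0.70 when it was deleted. Its other probe sets lay under the floor and were also highest in the Vhl floxed array, at 4.99 against 4.36 to 4.44 and at 4.22 against 3.47 to 3.74. In place of the Vhl floxed array, the Vhl floxed Apc mutant array as control gave -0.35, so the 2-fold call of Car8 rests on the Vhl floxed array.

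Most hepatocyte markers were highest in that same array, but Ttr, Cps1 and Tat were not. The 15 measured markers, each above the floor on at least 1 array, averaged 8.36, 5.69, 5.54 and 5.55, and their log2 summed level was 13.48, 11.82, 12.31 and 11.69. Apoh, Ahsg, Serpina1c, Fgb, Fga, Fgg, Tdo2, Bhmt and Mup3 reached the floor in the Vhl floxed array alone. Their place in the mean thus depended on that array. Alb, plasma albumin, read 11.53, 7.24, 6.10 and 7.08. The nearest profiles were Rgs13, a regulator of G protein signalling known from tuft cells, at 0.17, Diras2, a small GTPase, at 0.19, and Saa4, an apolipoprotein made in liver, at 0.19. Rgs13 read 6.65, 4.90, 5.21 and 5.29, so it reached the floor in the Vhl floxed array alone. Diras2 and Saa4 too reached the floor there alone. A list of tuft cell markers was added because Rgs13 came out near, and 4 of its 9 measured markers passed the floor, Rgs13 among them. Dclk1, a kinase that marks tuft cells, read 7.22, 6.15, 6.15 and 6.27, and Avil, an actin-binding protein, 6.999, 6.21, 6.45 and 6.44, both highest in the Vhl floxed array. Alox5ap did not share this order, with 7.60, 7.73, 7.47 and 7.67. The 5 under the floor were Trpm5, Pou2f3, Il25, Gfi1b and Sh2d6. Without Rgs13, which led to the list, the log2 summed level of the other 8 was 9.36, 9.03, 8.99 and 9.08. For neurons and glia, 5 of 8 measured markers passed the floor, and these averaged 7.04, 6.88, 6.79 and 6.53. The part of each cell type in the Car8 values was not tested.

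**Figure D3:**
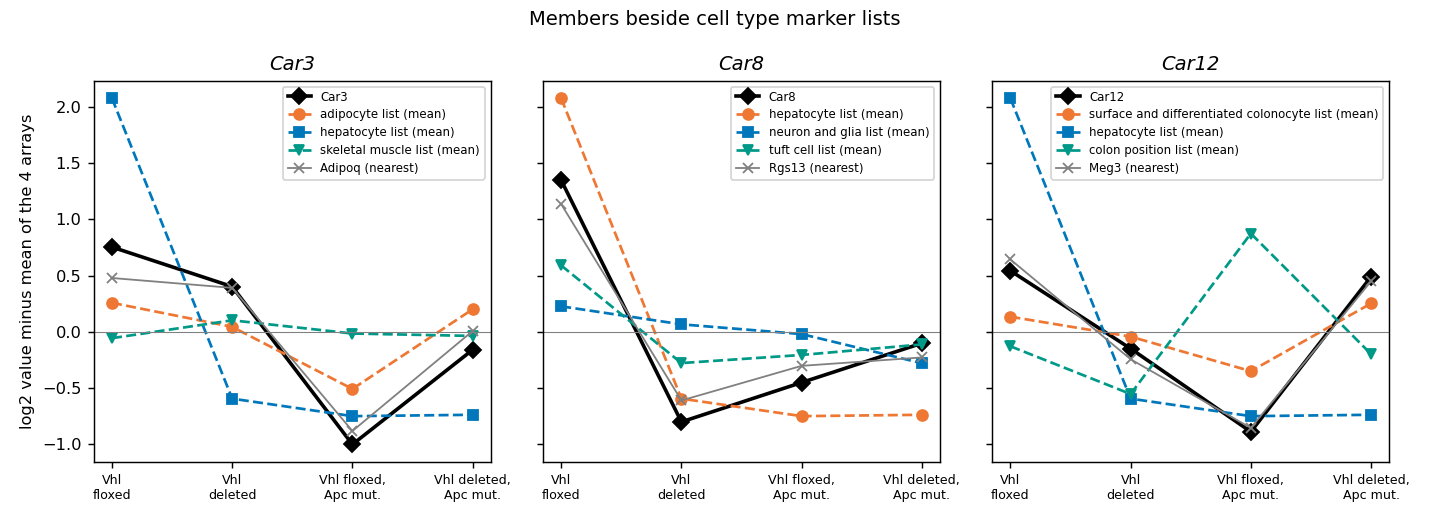
Log2 values of Car3, Car8 and Car12 (black) on the 4 arrays, each minus its mean over the arrays, beside the mean of cell type marker lists (dashed) and the gene with the nearest profile (grey). Car3 and Adipoq are lowest on the array of Vhl floxed Apc mutant mice. Car8 and the hepatocyte list are highest in the Vhl floxed array, the only one where most of that list's markers reached the floor.

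Between the Apc backgrounds, the Vhl difference of Car8 was greater with the Apc mutation by 2.50, that of Car12 by 2.07 and that of Car3 by 1.19. All 3 lay at 1 or more, against 1.27% of all genes, and 0 members lay at -1 or less, against 0.295%. For Car9, Car1, Car2 and Car4 the same quantity was 0.03, 0.03, -0.02 and -0.09. Each of these values combines 4 arrays and has no replicate check.

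The family's other genes were dim in this tissue. Of 8 genes, Car5a, Car5b, Car6, Car7, Car10, Car11, Car14 and Car15, 2 reached the floor. Car7, a cytosolic enzyme, read 6.37, 6.37, 6.12 and 6.14, and Car15, a lipid-anchored enzyme, 6.55, 6.15, 6.38 and 6.13. Neither was 2-fold apart in any comparison. The mitochondrial forms Car5a and Car5b read at most 4.20 and 4.54.

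Partners of carbonic anhydrases in acid and base transport were counted from lists. With Vhl deletion, 0 of the 9 bicarbonate and chloride transporters that passed the floor were 2-fold higher in either background, while 1 was 2-fold lower in wild-type Apc mice and 2 in Apc mutant mice. Median differences were -0.20 and -0.19. Slc26a2, a sulfate and anion exchanger, read 13.13, 11.49, 13.26 and 11.59, lower in both Vhl deleted arrays. Slc4a4, the sodium bicarbonate cotransporter, read 10.01, 9.81, 11.05 and 9.95, with an Apc difference of 1.04 when Vhl was floxed and a Vhl difference of -1.10 with the Apc mutation. Cftr, the chloride and bicarbonate channel, had Vhl differences of -0.66 and -0.18, and Slc4a2, a basolateral exchanger, -0.74 and -0.19.

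Among 9 proton and sodium-proton transporters, none was 2-fold apart in any of the 4 comparisons, and the median Vhl differences were 0.01 and -0.03. Slc9a3, the apical sodium-proton exchanger NHE3, read 11.80, 10.95, 10.98 and 11.52, which gave Vhl differences of -0.85 without and 0.55 with the Apc mutation. Atp12a, the colonic proton-potassium pump, read 13.21, 13.23, 13.12 and 12.93.

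Carriers of lactate and short-chain fatty acids moved apart from one another with Vhl deletion. Each background had 1 carrier 2-fold higher and 1 lower, of 7 that passed the floor. Slc16a3, the lactate exporter MCT4, read 5.19, 7.92, 5.34 and 8.19, under the floor in both floxed arrays, so its fold may be understated. Slc5a8, the sodium-coupled carrier of short-chain fatty acids, read 11.83, 10.08, 12.01 and 9.76. Bsg, the chaperone of these lactate carriers, was higher by 0.88 and 1.00, the second just under 2-fold. Car9 and Slc16a3 thus lay higher and Car4, Slc26a2 and Slc5a8 lower in both Vhl deleted arrays.

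Among 6 gas, water and ammonia channels that passed the floor, each Vhl comparison had 0 raised and 1 lowered 2-fold. Aqp1, a channel for water and carbon dioxide, read 9.21, 7.91, 9.09 and 7.74, with Vhl differences of -1.30 and -1.35. Aqp8, the surface colonocyte water channel, had Vhl differences of -0.07 and -0.24.

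**Figure D4:**
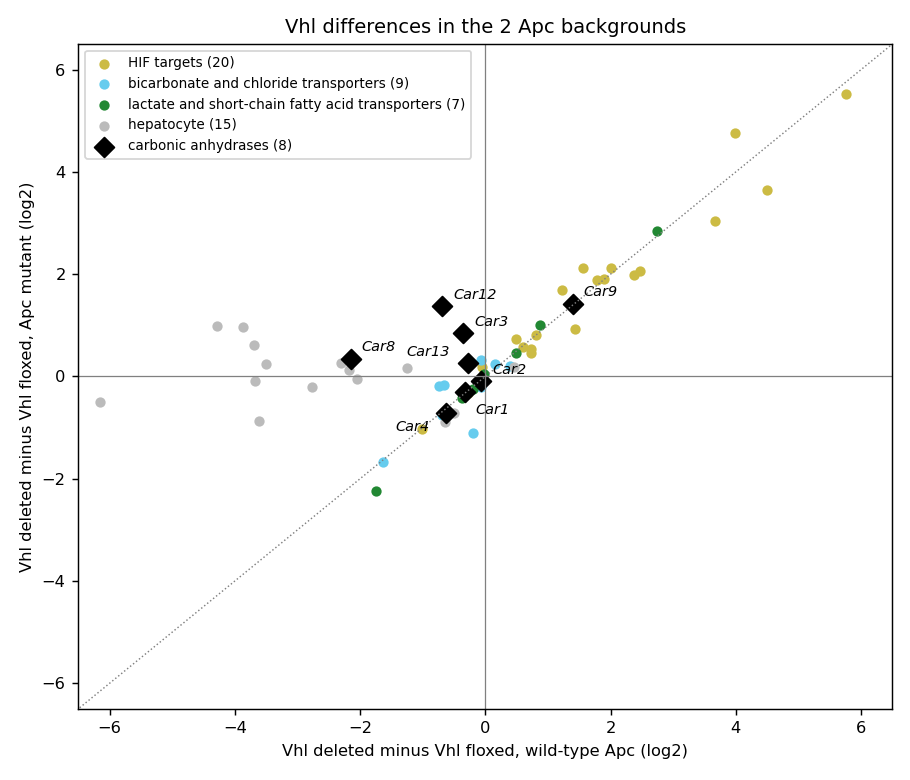
Vhl difference (log2) without the Apc mutation on the x axis and with it on the y axis for the 8 carbonic anhydrases (diamonds) and the members above the floor of 4 gene lists; the dotted diagonal marks equal differences. Car9 lies on the diagonal among the HIF targets at 1.40 and 1.42, whereas Car8, Car12 and Car3 lie above it.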

How the data were processed

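Arrays of colon mucosa, 1 per genotype, were used as deposited. The deposited table holds log2 values for every probe set, which the authors obtained by RMA in the affy package according to the submitters' processing notes, with no version stated. RMA subtracts background, equalises the distributions of the arrays and summarises the probes of each probe set. Dim and near-saturated signals on such arrays can be compressed. Array medians were 6.05 to 6.07. Gene symbols came from GEO's platform annotation. Entrez identifiers of all 18 member probe sets gave the same symbols in the RefSeq table of GRCm38.p6.

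From these values, differences of 2 arrays were computed for the brightest probe set of each gene, over the 11871 genes reaching 6 in at least 1 array. No p-value was computed, since each genotype has 1 array, and their number limits the precision. All 8 members are named, with every probe set. Listed partners are named when 2-fold apart in both Vhl or in an Apc comparison, and others beside them for context were chosen after their values were seen. Nearest profiles are the 3 genes at the smallest root mean square distance, for members with a 2-fold range. Members and lists were chosen with earlier results of these data known. The counting was tested on simulated data. Cyclic loess used limma 3.58.1 in R 4.3.3, and all else pandas 2.3.3 and numpy 2.4.6 under Python 3.11.15, with figures from matplotlib 3.10.9.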

Additional observations from a re-analysis of the deposited data

Results flagged for a closer look

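The Vhl difference had opposite signs in the Apc backgrounds for 4 members, and none of these differences between backgrounds was tested. With the Apc mutation the Vhl difference was greater by 2.50 for Car8, 2.07 for Car12, 1.19 for Car3 and 0.55 for Car13. Each background is 1 pair of arrays. For Car13 the second probe set above the floor gave -0.37, the opposite sign.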

How the results depend on the processing

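Counts of members at least 2-fold apart were recomputed 37 times, of which 30 stayed within 1.5 times of the reported count. When all probe sets of a gene were averaged, Car8, Car12 and Car13 fell under the floor, and 1 member was 2-fold apart in each Vhl comparison (Car9), 1 for the Apc mutation with floxed Vhl (Car3) and 0 for the difference between backgrounds. A 1.5-fold threshold gave 4 members in each Vhl comparison, adding Car4 to both, Car12 to the first and Car3 to the second, and 2 for the Apc mutation with deleted Vhl, Car8 and Car12. Of all genes 11.3%, 12.3% and 1.52% passed it in these comparisons. Cyclic loess left each count as reported. So did leaving out probe sets that may cross-hybridise, raising values under 6 to 6, no floor and a floor of 7. These other settings could not alter a member count, so their counts were fixed in advance. Each member's brightest probe set bears no such mark, lies above 6 on every array and reaches 7 on at least 1.

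Of 132 recomputed member differences, 120 moved by at most 0.1, but many of these could not move. No member's brightest probe set carries the mark of possible cross-hybridisation or reads under 6. Leaving out marked probe sets and raising values under 6 therefore changed no member difference. Averaging could not change Car1, Car2 and Car9, which have a single probe set each, and it dropped Car8, Car12 and Car13. With the other floxed array as control, 7 of 16 Vhl differences changed sign. They were Car12 at 0.74 without and -0.054 with the Apc mutation, Car3 at 1.40 and -0.91, Car13 at 0.12 and -0.14, and Car8 with the mutation at -1.45. Among them only that of Car12 with the Apc mutation had been 2-fold. This choice of control, and all alternatives but cyclic loess for the difference between backgrounds, were chosen after seeing the data. It left 2 members 2-fold apart in each Vhl comparison, but Car3 took the place of Car8 in the first and Car8 that of Car12 in the second. Car9 was 1.35 and 1.47 higher. The Apc comparison with floxed Vhl has no second control array. Signal near background, as for all the dimmer probe sets of Car8 and Car12, limits what their differences show.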
